A study of Mus musculus with 4 samples.

Results

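This account covers 10 genes of TGF-beta and myostatin signalling: Tgfb2, Mstn, Tgfbr1, Tgfbr2, Smad2, Smad3, Smad4, Smad6, Smad7 and Ldlrad4. They were taken by symbol, and all 10 were found among the 21887 protein-coding genes of the RefSeq annotation of GRCm38.p6, the assembly behind mm10. They were chosen with peaks of these data already known, so the presence or absence of peaks at them is a description and no test was made. Peaks were assigned to a gene when they overlapped its body or the 5 kb on either side.

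The study used CUT&RUN, in which an antibody guides a nuclease to cut out the DNA around its target, on gastrocnemius, a calf muscle, of C57BL/6 males 4 weeks old. The antibody was against PHF2, a member of the JmjC demethylase family whose PHD finger reads histone tails, or was IgG, which gives the background. KO muscle came from Phf2 flox/flox;Acta1 Cre+ mice and Ctrl muscle from Phf2 flox/flox;Acta1 Cre- mice, so both carried floxed Phf2 and only KO carried Cre. Acta1-Cre acts in muscle fibres, so other cells of KO muscle keep the gene. There were 4 groups of 1 library each: KO PHF2, Ctrl PHF2, KO IgG and Ctrl IgG. No group had a replicate, so every comparison is between libraries, not genotypes. In whole muscle, fewer cells with PHF2 at a site and less PHF2 per cell cannot be told apart, nor can loss of Phf2 and presence of Cre.

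The authors' lists held 161 KO PHF2, 1621 Ctrl PHF2, 152 KO IgG and 77 Ctrl IgG peaks. Read totals are unknown. Tags (sequenced fragments) at each PHF2 summit were worked back from the deposited fold and -log10 p. Their number ranged from 10 to 27 with a median of 15 in KO, and from 8 to 44 with a median of 15 in Ctrl. The same values put the KO PHF2 library at 1.01 times the size of the Ctrl PHF2 library, if fragment length was the same. The weakest peak had a -log10 p of 6.19 in KO PHF2 and 4.73 in Ctrl PHF2. The Ctrl list thus holds peaks weaker than any in the KO list. Fold enrichments are the authors' own values, taken at each summit relative to the background that the caller expected there. Which control gave that background is not given in the sources used here. Intervals below are exact 95% Poisson intervals for counting error of the summit tags only, and none was made for the background. The backgrounds named below are low, at most 1.46 scaled tags, and differences between them were not tested. Peak lists measure neither RNA nor protein, so they check neither the muscle label nor the loss of PHF2.

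TGF-beta ligands and myostatin, a relative that restrains muscle growth, bind paired type I and type II receptor kinases. For TGF-beta these are Tgfbr1 and Tgfbr2. The receptors phosphorylate Smad2 and Smad3, which join Smad4 and act on genes in the nucleus. Smad6 and Smad7 are inhibitory Smads that feed back on the receptors, and Ldlrad4 is a membrane protein that limits activation of Smad2 and Smad3.

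In Ctrl muscle PHF2 peaks lay at the ligand gene Tgfb2, the type II receptor gene Tgfbr2 and the inhibitor genes Smad7 and Ldlrad4. In KO muscle a peak was called at Smad7 alone, and IgG gave none at any member. KO PHF2 thus had a peak at 1 of the 10 genes, against 0.713% of all protein-coding genes, and Ctrl PHF2 at 4 of the 10, against 7.38%. Ctrl peaks without a KO peak were found at 3 members, against 6.80% of all genes, and peaks of both libraries at 1, against 0.576%. A KO peak without a Ctrl peak was found at 0, against 0.137%. The members were chosen on these values and nothing is read from the shares. Gene length also differs: 8 of the members span at least 50 kb, and among all genes of that length 1.88% had a KO PHF2 peak and 14.8% a Ctrl PHF2 peak.

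The 5′ flanks of 5 members are printed here because they show what lay at starts with and without a peak. Each runs from 250 bases before to 50 bases after the first listed start, from RefSeq (GRCm38.p6). They are Tgfbr2 (chr9:116175314-116175613, minus strand), where a Ctrl peak covered the start, Tgfb2 (chr1:186705940-186706239, minus strand), where peaks lay just downstream, and 3 with no peak: Tgfbr1 (chr4:47352972-47353271, plus strand), Smad6 (chr9:64022010-64022309, minus strand) and Mstn (chr1:53061390-53061689, plus strand). Capitals mark CAGAC (a half-site that Smads bind), GGGCGG (a GC box), CACGTG (an E-box), TGANTCA and GTCTAGAC (a palindromic Smad site), on either strand. TGANTCA allows any middle base and is looser than an AP-1 site, which has C or G there.
Tgfbr2: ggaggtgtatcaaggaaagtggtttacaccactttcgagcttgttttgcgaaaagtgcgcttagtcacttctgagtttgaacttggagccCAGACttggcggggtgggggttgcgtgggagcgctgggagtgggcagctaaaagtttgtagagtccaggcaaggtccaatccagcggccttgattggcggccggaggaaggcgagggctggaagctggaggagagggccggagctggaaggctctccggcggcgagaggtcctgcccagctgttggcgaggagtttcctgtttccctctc
Tgfb2: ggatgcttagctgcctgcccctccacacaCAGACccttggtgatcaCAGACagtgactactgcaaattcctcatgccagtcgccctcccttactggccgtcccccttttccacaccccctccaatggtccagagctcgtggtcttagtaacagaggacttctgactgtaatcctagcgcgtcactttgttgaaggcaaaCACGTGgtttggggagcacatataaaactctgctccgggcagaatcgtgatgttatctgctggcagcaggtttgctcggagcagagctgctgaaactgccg
Tgfbr1: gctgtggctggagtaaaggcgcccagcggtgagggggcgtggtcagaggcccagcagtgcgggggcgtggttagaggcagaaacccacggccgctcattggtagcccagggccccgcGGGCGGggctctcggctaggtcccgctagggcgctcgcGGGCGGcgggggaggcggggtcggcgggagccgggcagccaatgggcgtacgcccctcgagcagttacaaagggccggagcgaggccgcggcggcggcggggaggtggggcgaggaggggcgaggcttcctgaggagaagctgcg
Smad6: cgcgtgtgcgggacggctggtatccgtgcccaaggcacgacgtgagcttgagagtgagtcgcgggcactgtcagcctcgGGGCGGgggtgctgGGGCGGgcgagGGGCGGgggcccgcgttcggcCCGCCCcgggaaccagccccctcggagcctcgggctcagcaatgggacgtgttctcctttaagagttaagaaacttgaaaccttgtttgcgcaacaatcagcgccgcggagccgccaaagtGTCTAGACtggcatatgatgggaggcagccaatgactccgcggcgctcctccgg
Mstn: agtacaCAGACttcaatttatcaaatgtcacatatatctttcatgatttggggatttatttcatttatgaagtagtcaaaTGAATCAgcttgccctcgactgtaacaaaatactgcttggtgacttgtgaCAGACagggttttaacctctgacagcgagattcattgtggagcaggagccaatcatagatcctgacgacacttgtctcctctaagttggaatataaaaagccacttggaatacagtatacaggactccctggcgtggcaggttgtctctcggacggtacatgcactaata

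The Ctrl peak at Tgfbr2 covered 204 of the 300 printed bases, from base 97 to base 300, which includes the start. The single CAGAC of this flank, at bases 91 to 95, lies just before the covered part. The flank of Tgfb2 holds 2 CAGAC and 1 CACGTG, and that of Mstn 2 CAGAC and 1 TGANTCA. The match at Mstn reads TGAATCA, with A in the middle, so it is not the usual AP-1 site. The flank of Tgfbr1 holds 2 GGGCGG and no CAGAC. Smad6 has 4 GC boxes and the GTCTAGAC palindrome at bases 247 to 254, a motif that was added after the sequences were seen. Of 21263 flanks of protein-coding genes in the table, 48.4% hold CAGAC, 46.2% GGGCGG, 7.84% CACGTG, 6.99% TGANTCA and 0.226% GTCTAGAC. A match is a description of letters and not a binding site. The number of CpG dinucleotides was 15 at Tgfbr2 and 10 at Tgfb2, whose flank no peak overlapped. Among members without a peak it was 34 at Tgfbr1, 31 at Smad6, 25 at Smad3 and 6 at Mstn. The flank of the second listed start of Tgfbr1 had 3. The median of all flanks was 13.

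Tgfb2 (Gene ID 21808, chr1:186622787-186709697), which encodes a TGF-beta ligand, had no KO PHF2 peak and 2 Ctrl PHF2 peaks, both downstream of its start. The farther ran from 186703586 to 186704219 (634 bp), with its summit 2091 bp downstream of the listed start, a fold enrichment of 9.47 and 19 tags (11.4 to 29.7). The nearer ran from 186704920 to 186705533 (614 bp), with its summit 1000 bp downstream of that start, a fold of 5.85 and 18 tags (10.7 to 28.4). A gap of 700 bp separated them. The 2 summits thus differed by 1 tag, within counting error, while their folds differed. The local background, the level the caller expected at the site, was 0.409 scaled tags at the farther and 1.17 at the nearer. Whether these backgrounds differ beyond counting error was not tested. On fold the peaks ranked 115 and 1052 in the list of 1621, and on tags 347 and 426. The listed start lies inside the annotated gene, whose upper end is 5799 bp from the farther summit and 4708 bp from the nearer one. A long non-coding gene, Gm35655, lies within 1 kb of the farther peak.

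Mstn (Gene ID 17700, chr1:53061640-53068079), which encodes myostatin, held no peak of any library. At 6.44 kb it is the shortest of the members.

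Among the receptors the pair was divided. Tgfbr2 (Gene ID 21813, chr9:116087695-116175363) had no KO PHF2 peak and a single Ctrl PHF2 peak from 116174746 to 116175517 (772 bp), which straddled its start with the summit 272 bp downstream. Its fold was 7.89 and its summit held 15 tags (8.40 to 24.7), the median of the list. Tgfbr1 (Gene ID 21812, chr4:47353222-47414926) had no peak of any library at either of its 2 listed starts or in its body. Its nearest KO PHF2 peak lay 11.5 Mb away and its nearest Ctrl PHF2 peak 628 kb away. A KO PHF2 peak overlapped such a flank in 0.189% of 17492 genes in the table and a Ctrl PHF2 peak in 4.10%. A long non-coding gene, Gm40582, lies within 1 kb of the Tgfbr2 peak.

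Smad2, Smad3 and Smad4, which carry the TGF-beta signal, had no peak. Among all genes of at least 50 kb, 14.8% had a Ctrl PHF2 peak and 1.88% a KO PHF2 peak, so having none was usual. For Smad2 (chr18:76241090-76311748) the nearest KO PHF2 peak was 873 kb away, at Smad7, and the nearest Ctrl PHF2 peak 754 kb away, at Pias2. For Smad3 (chr9:63646766-63757994) these distances were 5.06 Mb in KO and 248 kb in Ctrl. For Smad4 (chr18:73634790-73703791), the partner of both, the nearest peaks of both lists were those at Smad7, 1.66 Mb away. These 3 genes span 70.7, 111 and 69.0 kb.

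The inhibitory Smads differed. Smad6 (chr9:63953076-64022085) had no peak. Its nearest KO PHF2 peak was 5.37 Mb away and its nearest Ctrl PHF2 peak, at Map2k1, 231 kb away. Among the 6 members without a Ctrl PHF2 peak, this was the shortest distance to one. Smad7 (Gene ID 17131, chr18:75367365-75395935) was the member with a KO PHF2 peak, which ran from 75367334 to 75367912 (579 bp). It had 2 Ctrl PHF2 peaks, from 75367407 to 75368438 (1032 bp) and from 75369909 to 75370867 (959 bp). The KO summit lay 218 bp inside the lower end of the gene, and the Ctrl summits 333 and 2879 bp inside it. The KO peak overlapped the first Ctrl peak by 506 bp, and those summits were 115 bp apart. No KO peak was called at the second, whose 20 tags (12.2 to 30.9) gave a fold of 6.99. A long non-coding gene, Gm20544, lies within 1 kb of the shared site.

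At the shared Smad7 site 22 tags were counted in KO and 22 in Ctrl, each with an interval of 13.8 to 33.3. The fold was 7.20 in KO and 9.65 in Ctrl. The local background was 1.0 scaled tags in KO and 0.584 in Ctrl, so the fold was lower in KO at an equal number of tags. Whether these low backgrounds, and with them the folds, differ beyond counting error was not tested. Over the library-wide background, which was 0.343 scaled tags in KO and 0.361 in Ctrl, the fold would be 10.7 in KO and 11.2 in Ctrl. Of the 114 Ctrl PHF2 peaks that overlapped a KO PHF2 peak (7.03% of all Ctrl peaks), the KO summit had as many tags in 5, fewer in 94 and more in 15, and the median KO to Ctrl ratio was 0.724. Of the 6 Ctrl peaks at members, 1 overlapped a KO peak. The single KO peak at a member overlapped a Ctrl peak, as did 75.8% of all KO PHF2 peaks. The KO peak ranked 13 of 161 on tags and 45 of 161 on fold.

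**Figure D1:**
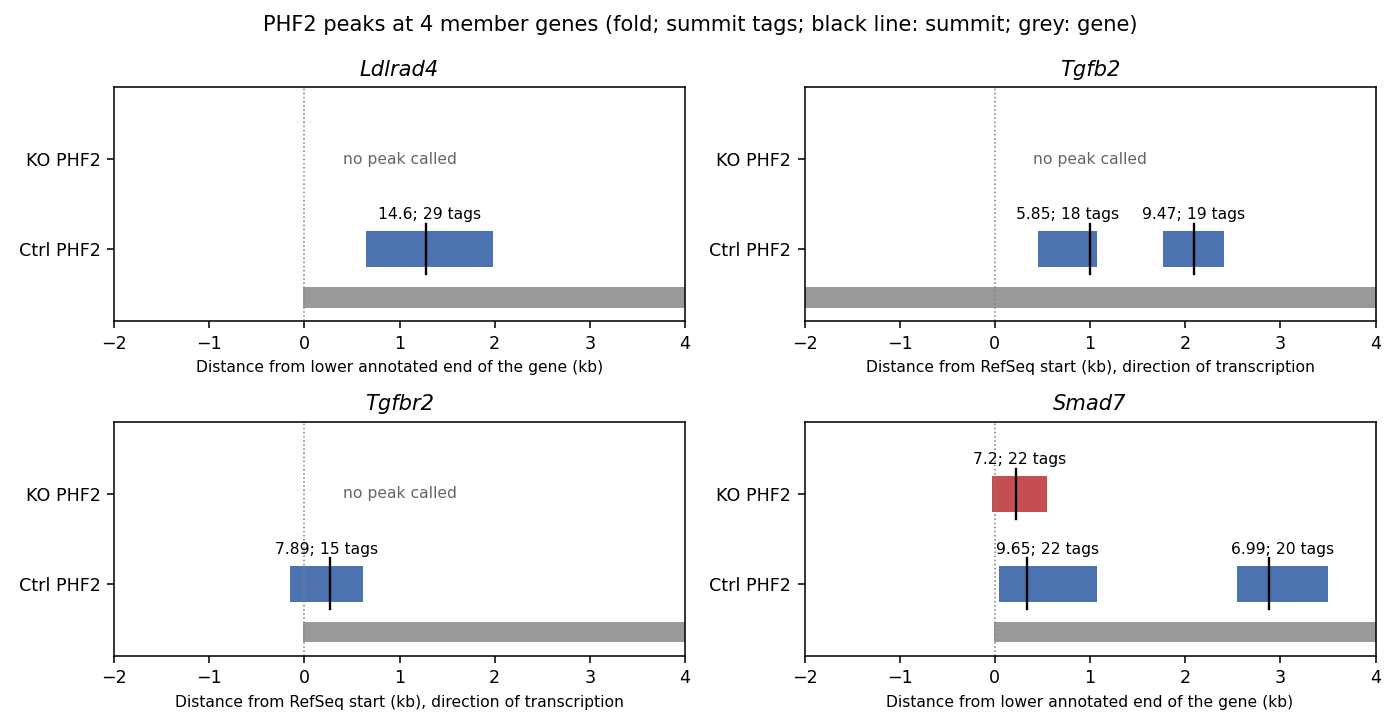
PHF2 peaks called in KO (red, upper row) and Ctrl (blue, lower row) muscle at the 4 members with a peak, drawn to scale against distance in kb, with the summit as a black line and the gene as a grey bar. Beside each peak stand its fold enrichment and summit tags. KO has a peak at Smad7 alone, with 22 tags as in the Ctrl peak that it overlaps.

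Ldlrad4 (Gene ID 52662, chr18:67932274-68260550), the longest member at 328 kb and with 14 RefSeq transcripts, had no KO PHF2 peak; the nearest was that at Smad7, 7.11 Mb away. Its single Ctrl PHF2 peak ran from 67932918 to 67934254 (1337 bp), with the summit 1278 bp inside the lower end of the gene. The summit held 29 tags (19.4 to 41.6) over a local background equal to the library-wide 0.361, which gave a fold of 14.6. On fold it ranked 3 of 1621, on tags 26 and on width 136. It was the highest of the member peaks on all of these measures. Its interval on tags overlapped those of Smad7, Tgfb2 and Tgfbr2.

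The order of the 6 Ctrl member peaks on tags was Ldlrad4 (29), the first Smad7 peak (22), the second (20), both Tgfb2 peaks (19 and 18) and Tgfbr2 (15). The intervals of neighbours in this order overlapped. Widths ran from 614 to 1337 bp, all above the list median of 505 bp, and folds from 5.85 to 14.6, with 5 of 6 above the list median of 6.37. The summits lay between 272 and 5799 bp from an annotated gene end, and 5 of the 6 peaks lay wholly inside the gene. The 5 Ctrl peaks with no KO counterpart held 15 to 29 tags, while KO PHF2 peaks were called from 10 tags upward. Reads of the KO library were not analysed here, so the absence of a call gives no KO level.

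**Figure D2:**
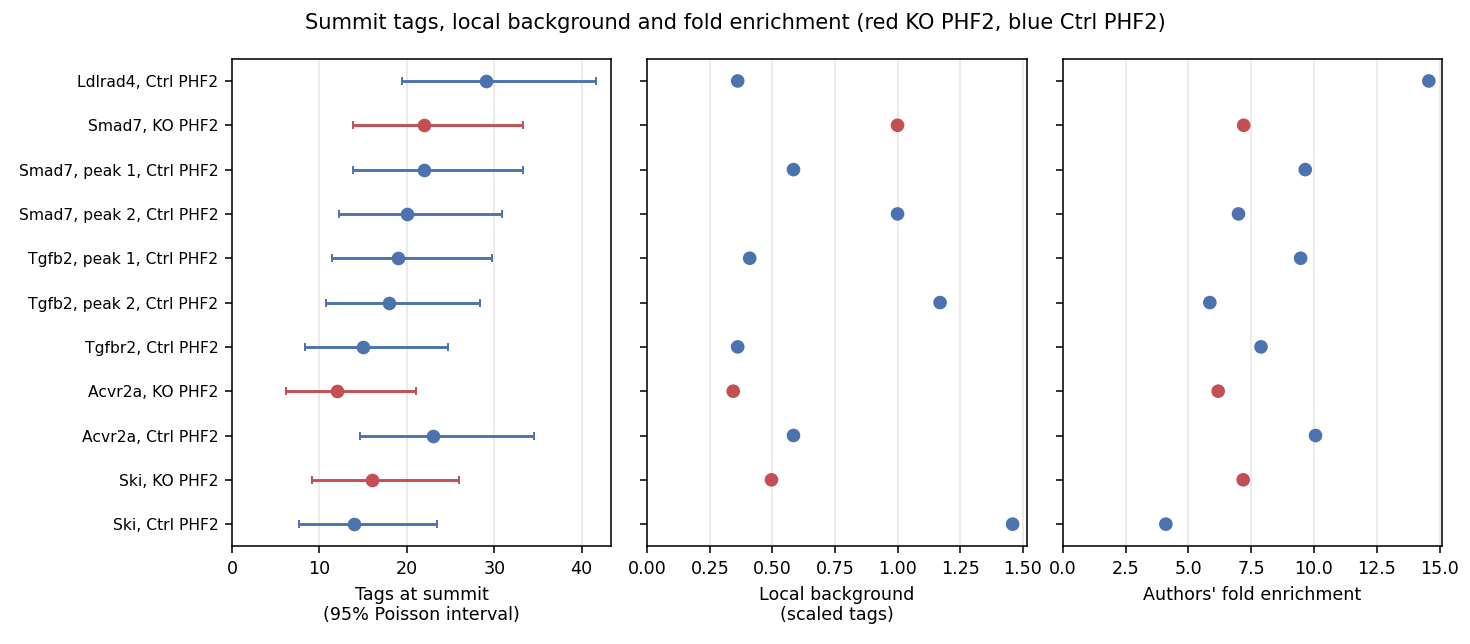
Summit tags with 95% Poisson intervals (left), local background in scaled tags (middle) and the authors' fold enrichment (right) for the KO (red) and Ctrl (blue) PHF2 peaks at members and at Acvr2a and Ski. At the shared Smad7 site the peaks have 22 tags in both libraries, with a background of 1.0 in KO and 0.584 in Ctrl.

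**Figure D3:**
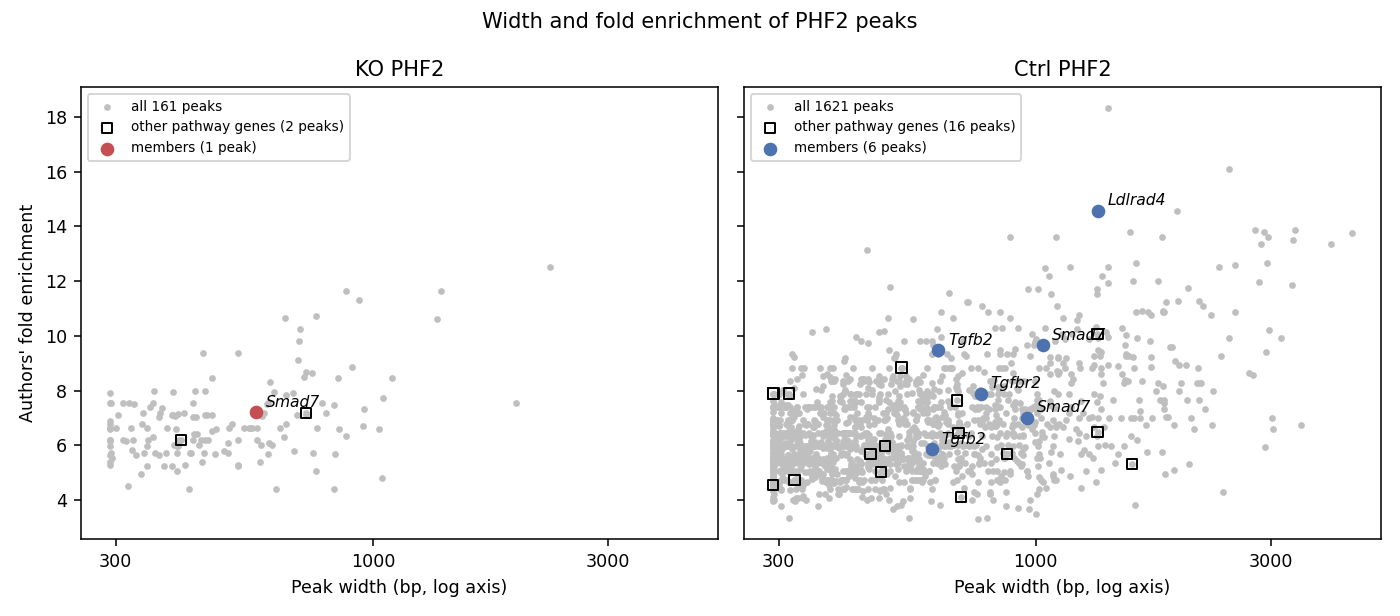
Width in bp (log axis) against fold enrichment for every KO PHF2 (left) and Ctrl PHF2 (right) peak, with members filled and other pathway genes as squares. The Ldlrad4 peak lies near the top of the Ctrl list at a fold of 14.6, and the other member peaks lie between 5.85 and 9.65.

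Of the IgG libraries, KO IgG came nearest to a member at Smad3, 858 kb away, and Ctrl IgG at Tgfb2, 3.32 Mb away. Over all genes 0.155% had a KO IgG peak and 0.064% a Ctrl IgG peak. At Phf2 itself neither PHF2 library had a peak, and KO IgG had 1, with a fold of 8.59.

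Another 70 genes of the wider TGF-beta superfamily were looked at in the same way, also listed with earlier results known. A KO PHF2 peak was found at 2 of them (2.86%, against 0.713% of all genes) and a Ctrl PHF2 peak at 13 (18.6%, against 7.38%). Their median length was 24.8 kb, and 22 of them span at least 50 kb. No IgG peak lay at any of the 70. The Ctrl list holds weaker peaks than the KO list, and the counts for the 70 were not repeated at a common threshold.

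Of 11 receptors and coreceptors, 1 had a KO peak (9.09%, against 0.713% of all genes) and 6 a Ctrl peak (54.5%, against 7.38%). Their median length was 90.4 kb and 7 of them span at least 50 kb, a length at which 1.88% of all genes had a KO peak and 14.8% a Ctrl peak. Acvr2a, a type II receptor for activins and myostatin, had a peak in both libraries. The KO peak (chr2:48814004-48814411) had 12 tags (6.20 to 21.0) and a fold of 6.19, against 23 tags (14.6 to 34.5) and a fold of 10.1 in the Ctrl peak (chr2:48814134-48815467). The intervals overlap, and the summits were 567 bp apart, 154 bp after the start in KO and 721 bp in Ctrl. Acvr2b, the other type II receptor for myostatin, had a Ctrl peak alone, with 13 tags and a fold of 4.72. The BMP receptor genes Acvr1 (23 tags, fold 5.31), Bmpr2 (17 tags, fold 8.84) and Bmpr1a (9 tags, fold 5.03) and the coreceptor gene Tgfbr3 (11 tags, fold 5.98) also had Ctrl peaks alone. The peak at Bmpr2 lay wholly outside the gene, with its summit 356 bp before the start. The peak at Acvr1 was the widest of the pathway at 1569 bp and spanned the whole 300 bp flank, which holds 51 CpG. Its summit lay 47 bp before the start, and another protein-coding gene, Upp2, lies within 1 kb of this peak. The type I receptor genes Acvr1b and Acvr1c had no peak. The Ctrl peaks at Acvr2b and Bmpr1a had a -log10 p of 5.95 and 5.64, below the 6.19 of the weakest KO PHF2 peak.

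Of the 3 other Smads, 0 had a KO peak (against 0.713% of all genes) and 1 a Ctrl peak (33.3%, against 7.38%). Of 12 intracellular inhibitors, 6 of which span at least 50 kb, 1 had a KO peak (8.33%, against 0.713% of all genes) and 3 a Ctrl peak (25%, against 7.38%). Smad1, which carries BMP signals, had 2 Ctrl peaks of 292 and 293 bp, 161 bp apart, both with 15 tags and a fold of 7.89. Their summits lay 539 and 168 bp after its start. No peak in the Ctrl list was narrower than 292 bp, so these widths are at the floor of the list. Ski, a corepressor of Smads, had a peak in both libraries. Its KO peak had 16 tags (9.15 to 26.0) and a fold of 7.18, and its Ctrl peak 14 tags (7.65 to 23.5) and a fold of 4.10. The backgrounds were 0.496 in KO and 1.46 in Ctrl. The fold was thus higher in KO at tag numbers that did not differ beyond counting error. For the backgrounds this was not tested. The Ctrl peak at Ski had a -log10 p of 5.49, below the weakest in the KO list (6.19). Tgif1, another corepressor, had 2 Ctrl peaks (14 and 16 tags), and Smurf2, a ubiquitin ligase that acts on receptors and Smads, had 1 (16 tags, fold 5.70).

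The remaining groups had no KO peak, where 0.713% of all genes had one. Of 15 ligand genes, 2 had Ctrl peaks (13.3%, against 7.38% of all genes), Bmp4 and Inha. Bmp4 had a pair of peaks inside the gene, with 8 and 12 tags. The Bmp4 peak of 8 tags had a -log10 p of 5.64, below the weakest in the KO list (6.19). The Inha peak of 15 tags lay outside the gene and within 1 kb of its neighbour Obsl1. Of 12 target genes 1 had a Ctrl peak (8.33%), Klf10, a TGF-beta-induced transcription factor gene, with 22 tags and a fold of 7.64. The 14 genes of extracellular inhibitors and latency proteins, among them the myostatin antagonists Fst and Fstl3, and the 3 relatives of Ldlrad4 had none. The median length of the 14 was 12.2 kb, and 3 of them span at least 50 kb.

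**Figure D4:**
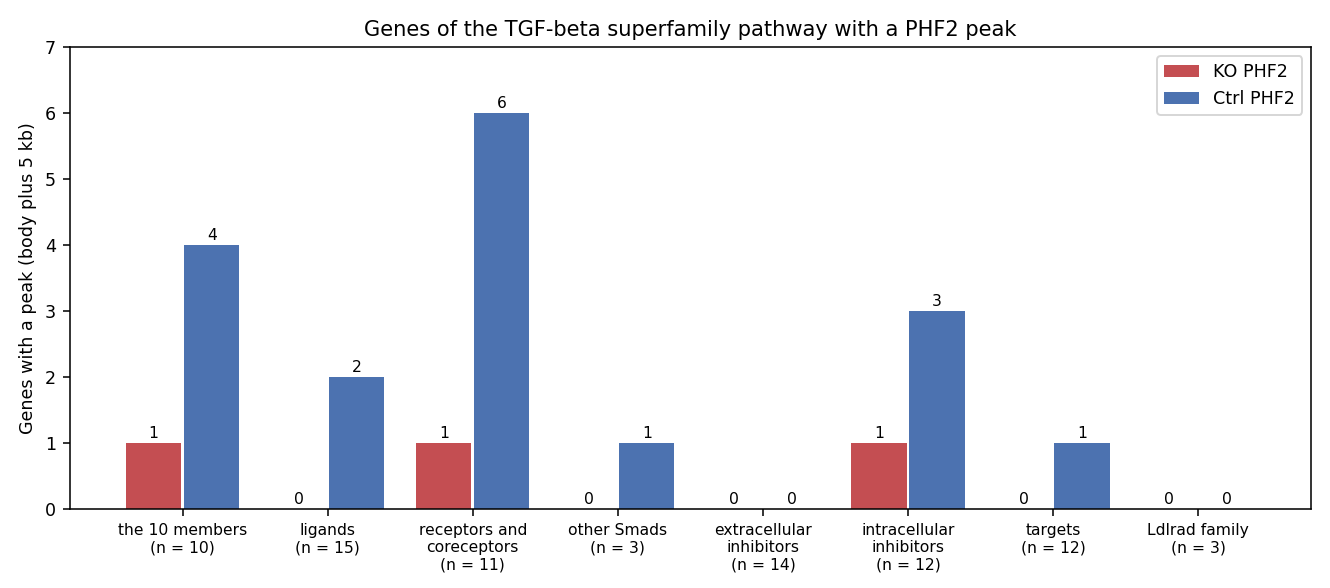
Number of genes with a KO PHF2 (red, left) or Ctrl PHF2 (blue, right) peak in the gene body plus 5 kb, for the 10 members and each group of other pathway genes. Receptors and coreceptors have 1 gene of 11 in KO and 6 of 11 in Ctrl, and extracellular inhibitors have 0 of 14 in both. Of all protein-coding genes, 0.713% had a KO and 7.38% a Ctrl PHF2 peak. Median gene length was 90.4 kb for receptors and coreceptors and 12.2 kb for extracellular inhibitors.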

How the data were processed

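Sample titles gave the groups. Reads were aligned with Bowtie2 to mm10 and peaks called with MACS2, per the submitters' processing notes. Not given in the sources used here: versions, parameters, treatment of duplicates, and which control was used. Each peak name holds the name of 1 library, so calling was done library by library. The deposited lists follow the narrowPeak layout of 10 columns. In them the authors give a fold (a ratio of summit to local background). Beside it stand the deposited -log10 p and, after correction, -log10 q. The deposited score is 10 times the -log10 q without its decimals and was not used. These values describe and rank peaks within a list.

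MACS2 computes its fold as (scaled pileup + 1) / (background + 1) and p from a Poisson upper tail, so tags and background were solved for each PHF2 peak. All 84 KO and 309 Ctrl pairs of values gave whole tags, within 0.005, times 1 factor per library (0.609 in KO, 0.649 in Ctrl). The best other factors gave 39.3% and 36.6%. Tested on simulated data, 100% of tags were recovered, which checks the solving step and not how the deposited values were made. In Ctrl, 45 peaks had 2 solutions, none of them at a gene named here.

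Starts were written 1-based and overlap meant at least 1 bp. The RefSeq table holds no exons, and no promoter of chromosome 18 was used, so positions at Smad7 and Ldlrad4 are from gene ends. The members and lists were chosen with earlier results of these data known. All members were named, and of other pathway genes those with a PHF2 peak; further genes without one were picked for mention with their values known. The alternatives were other windows, stricter thresholds, the stronger 50% of each list, merged peaks and other overlap rules. With 1 library per group no test across samples was possible. Computing was done in Python 3.11.15 with SciPy 1.17.1, pandas 2.3.3 and NumPy 2.4.6, and figures in matplotlib 3.10.9.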

Additional observations from a re-analysis of the deposited data

How the results depend on the processing

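Of 35 other settings, 34 left the counts of members with KO PHF2, Ctrl PHF2 or IgG peaks, of Ctrl member peaks and of shared peaks within 1.5 times their value. Several of these settings could not change a count, so the 34 is no measure of robustness. No IgG peak lay nearer to a member than 858 kb, and a cut at the weakest KO PHF2 peak removes no KO peak. Windows of 0 to 50 kb gave the same members. A reciprocal overlap of at least 50% left 0 Ctrl member peaks shared with KO, because the 506 bp at Smad7 are 87.4% of the KO peak and 49.0% of the Ctrl peak. The ratio of KO to Ctrl fold at that site was 0.746 as deposited and 0.955 over the library-wide background, an alternative chosen after seeing the data, like the genes of at least 50 kb and the GTCTAGAC motif. No paired analysis was possible because there was 1 library per group, and leaving one out would empty a group. Summits of 8 to 44 tags limit what can be told apart, and a site with no call may hold tags below the threshold.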

Other observations

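The pattern of fold and tags at Smad7 and Ski was looked at over all 114 Ctrl PHF2 peaks that overlapped a KO PHF2 peak, after the values were seen. The KO fold was the higher in 46 of them, while the KO summit had more tags in 15. The KO local background was the lower in 89 and the higher in 19, and counting error of the backgrounds was not taken into account. Smad7, with the same tags in both libraries and a higher background in KO, was among the 19.

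Pairs of Ctrl PHF2 peaks in 1 gene occurred at Tgfb2 and Smad7, with gaps of 700 and 1470 bp, and at Bmp4, Smad1 and Tgif1, with gaps of 442, 161 and 646 bp. Among all 1615 genes with a Ctrl PHF2 peak, 14.6% had more than 1. On the chromosomes with listed starts, 57.1% of 154 KO PHF2 summits and 67.9% of 1565 Ctrl PHF2 summits lay within 1 kb of a start, and of these 85.2% in KO and 77.8% in Ctrl lay at or after it.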
